A study of Rattus norvegicus with 22 samples.

Results

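The genes described here are Ttr and those whose level rose and fell with it across the hippocampus of injured and sham rats. They were chosen by the measured values themselves. A gene entered when it had a count sum of at least 50 over the 14 libraries and a Pearson r of at least 0.9 with Ttr on the scale log2(CPM + 1), where CPM is the count per 1000000 counts of the library. The rule took 36 genes, Ttr included, out of 17172 in the table, of which 13074 reached the count sum. Because the same 14 libraries supplied the correlation and every level below, the levels, fold changes and calls of these genes are descriptions of how they were chosen, and nothing is read from them as a test.

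Adult male Sprague-Dawley rats received either lateral fluid percussion, a model of traumatic brain injury (TBI) in which a fluid pulse strikes the exposed dura, or a sham operation with the same surgery and anesthesia but no pulse. The hippocampus on the operated side was collected at day 1 or day 14, and polyadenylated RNA of the whole tissue was sequenced. There were 2 sham and 4 TBI libraries at day 1, and 4 sham and 4 TBI libraries at day 14, with total counts from 15065540 to 23743703. The labels do not name a batch, and no pair of libraries of a group agreed within counting noise. In whole tissue, fewer cells of a type and less RNA per cell cannot be told apart.

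Transthyretin, the product of Ttr, carries thyroxine and binds the retinol carrier protein. In the brain it is made mainly by the epithelium of the choroid plexus, a tissue that lies in the ventricles beside the hippocampus and secretes the cerebrospinal fluid. That epithelium is known for its tight junctions, its ion and folate transport and its secreted growth factor antagonists.

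Upstream sequences are shown for Ttr, which defined the set, and for the 2 members whose last 100 bases before the annotated start held the core TAATCC. That core is recognised by the OTX homeodomain proteins, a family with a known role in choroid plexus development. The starts were used as RefSeq lists them, and whether they are the main starts of transcription in this tissue was not tested. The sequences are those of RefSeq on build GRCr8 and run in the direction of the gene, with TAATCC, or its reverse complement GGATTA, in capitals. They lie at chr18:12218658-12218757 on the plus strand for Ttr, chr8:53342434-53342533 on the plus strand for Mfrp and chrX:34027125-34027224 on the minus strand for Tmem27, which RefSeq now names Cltrn.
Ttr: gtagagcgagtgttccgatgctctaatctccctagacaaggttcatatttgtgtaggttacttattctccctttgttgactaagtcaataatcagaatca
Mfrp: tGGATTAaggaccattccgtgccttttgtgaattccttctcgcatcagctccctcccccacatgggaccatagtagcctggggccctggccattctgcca
Tmem27: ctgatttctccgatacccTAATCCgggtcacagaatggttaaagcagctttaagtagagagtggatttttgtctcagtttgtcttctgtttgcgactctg

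All 36 members had an entry in the RefSeq gene table, 4 of them under a newer symbol, and 29 members had 31 upstream sequences. Sostdc1, Cldn2, Clic6, Folr1, Enpp2, Cdh3 and Mdk had none. Within 250 bases before the start, TAATCC stood on either strand in 4 of 31 member sequences (Mfrp, Tmem27, Adipoq and Pla2g5), or 12.9%, with an exact 95% binomial interval from 3.63 to 29.8%, and in 6.34% of all 33469 sequences of the same length. The other shares were 35.5% against 34.0% for CCAAT, 9.68% against 12.9% for TATAAA, 9.68% against 9.89% for GTTGCC, 6.45% against 12.1% for TGTTTA, 6.45% against 7.31% for CAATTA and 38.7% against 30.5% for GGGCGG, members first. CACGTG stood in 0 of 31 member sequences and in 5.59% of all. In the last 100 bases, TAATCC stood in 2 of 31 member sequences, or 6.45% (interval 0.791 to 21.4%), and in 2.29% of all. CCAAT and CAATTA can overlap in the run CCAATTA. A match describes the letters of the window and not a bound site.

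Ttr was high in 3 of the 14 libraries, and the other members were highest in the same 3, with 1 exception. The counts of Ttr at day 1 were 140652 and 70 in the 2 sham libraries and 83, 93, 176 and 88 in the TBI libraries. At day 14 they were 175, 123, 197 and 187 in the sham libraries and 170, 24020, 141619 and 92 in the TBI libraries. Sham day 1 replicate 1, TBI day 14 replicate 3 and TBI day 14 replicate 2 thus stood far above the other 11 libraries, at 7330, 7159 and 1408 CPM against 2.95 to 11.3 CPM. The high libraries came from 1 sham and 2 TBI animals, and the other libraries of their groups lay among the 11. Ttr took 0.733% of all counts in sham day 1 replicate 1 (exact 95% binomial interval 0.729 to 0.737%, counting error only), 0.141% in TBI day 14 replicate 2 and 0.716% in TBI day 14 replicate 3.

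**Figure D1:**
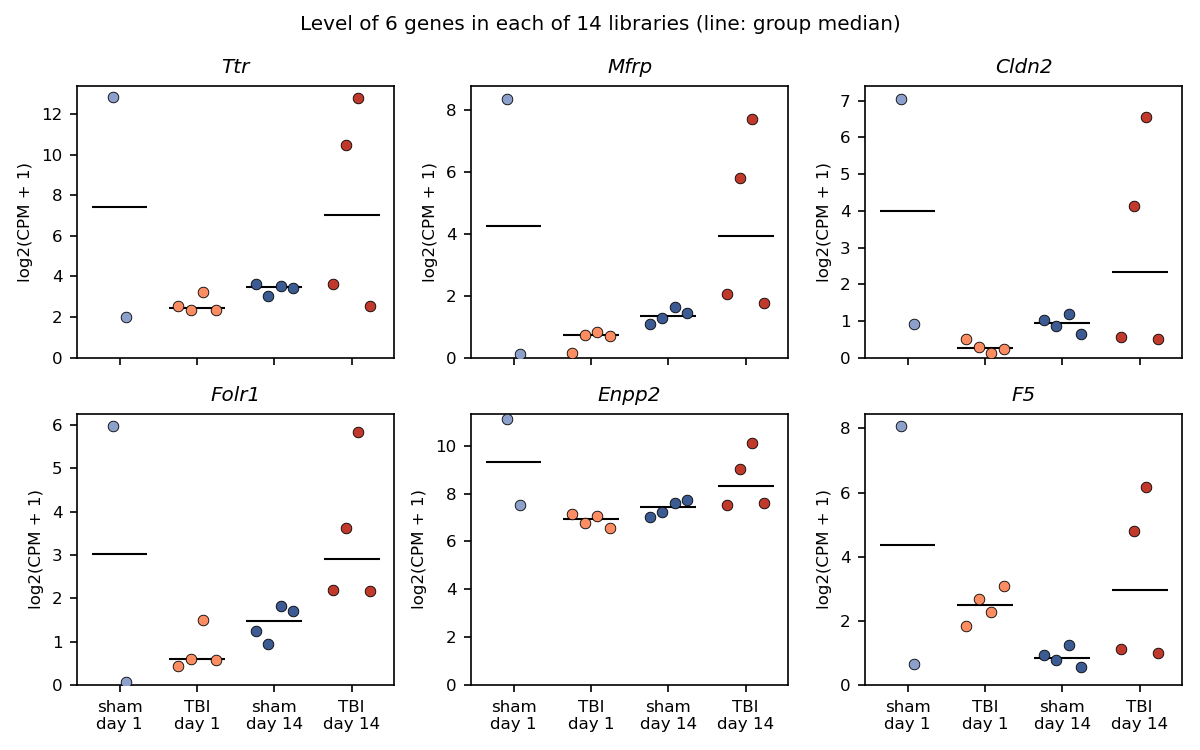
Level of Ttr, Mfrp, Cldn2, Folr1, Enpp2 and F5 as log2(CPM + 1) on the vertical axis (each panel has its own scale) in each of 14 libraries, grouped by treatment and day, with points for libraries in the order of their replicate numbers and a line for the group median. In every panel sham day 1 replicate 1 and TBI day 14 replicates 2 and 3 are the 3 highest points, and for F5 the 4 TBI day 1 libraries lie above the 4 sham day 14 libraries.

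The members as a whole took 1.15, 0.223 and 0.935% of all counts in those 3 libraries, in the order sham day 1 replicate 1, TBI day 14 replicate 2 and TBI day 14 replicate 3. In the other 11 libraries they took 0.0129 to 0.0261%. For 34 of the 35 members other than Ttr, each of the 3 libraries lay above each of the other 11. The exception was Krt18, a keratin of simple epithelia, with 96, 18 and 147 counts, or 1.05 CPM in TBI day 14 replicate 2, against up to 1.06 CPM elsewhere. The lowest of the 3 exceeded the highest of the 11 by a median factor of 3.71, ranging from 0.992 for Krt18 to 42.5 for Sostdc1. Sham day 1 replicate 1 was the highest library for 27 of the 35 and TBI day 14 replicate 3 for 8, and TBI day 14 replicate 2 lay below both for all 35.

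The r of the 35 members with Ttr over 14 libraries, which chose them, had a median of 0.949. The 10 closest to Ttr were Slco1a5 (r = 0.988), Scgb1c1 (0.987), Mfrp (0.987), Sostdc1 (0.981), Cldn2 (0.980), Clic6 (0.974), Sytl3 (0.970), Kl (0.969), Slc16a8 (0.967) and Tmem27 (0.962). The 5 just inside the threshold were Fam160a1 (0.909), Gdf7 (0.909), Lrrc18 (0.909), Krt18 (0.907) and F5 (0.901). The 5 just outside were Cox8b (0.8999), LOC654482 (0.896), Msx1 (0.891), Spint2 (0.886) and Xcl1 (0.886), so that no gap in r separated members from non-members. The potassium channels Kcnj13 (0.975) and Kcnq1 (0.921) passed the correlation and were left out by their symbols. No gene reached an r of -0.9 or below, and the lowest was -0.79.

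**Figure D2:**
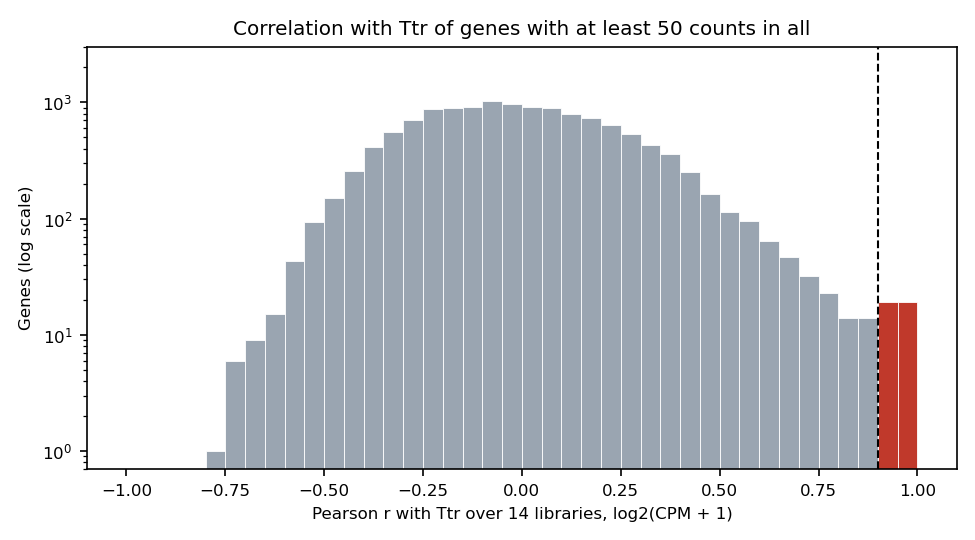
Number of genes (vertical, log scale) by Pearson r with Ttr over 14 libraries (horizontal, steps of 0.05) among the 13074 genes with a count sum of at least 50; the dashed line marks 0.9. The red columns hold 38 genes, which are the 36 members and the 2 left out by symbol, and the gray columns run down to -0.79.

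Among ranks and among fewer libraries the members followed Ttr less closely. Spearman's rho over 14 libraries had a median of 0.67 and ranged from 0.21 for Tmem72 to 0.96 for RGD1561795. Without the 2 libraries farthest from the median of Ttr, sham day 1 replicate 1 and TBI day 14 replicate 3, r had a median of 0.877 over 12 libraries and 15 of 35 members still reached 0.9. Without all 3 high libraries, 0 of 35 reached 0.9 over the remaining 11. Their median was 0.32, and r lay above 0 for 27 members and below 0 for 8. The other 13038 genes with a count sum of at least 50 had a median of -0.04, with 6242 above 0 and 6796 below. An r of at least 0.9 with Ttr therefore rests on those 3 libraries. Among the 11, RGD1561795 (0.81), Krt18 (0.79), Folr1 (0.71) and Mfrp (0.68) had the highest r, and Tmem72 (-0.68), Pon1 (-0.57) and Kl (-0.50) the lowest.

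The 8 libraries of sham day 14 and TBI day 1, none of which was high, gave a median r of 0.245 over the 35 members. Of these, r lay above 0 for 22 and below 0 for 13. The other 13038 genes had a median of -0.175, with 5593 above 0 and 7445 below. After each group was centred on its own mean, the median was 0.06, with 18 above 0 and 17 below, and the median of the other 13038 genes was 0.01. Slc16a8 (0.88), Folr1 (0.80), Tmem27 (0.79), Slc4a5 (0.76) and Pla2g5 (0.74) had the highest centred r. Tmem27 had 2 and 4 counts in 2 of these libraries and 0 in the other 6, so its value rests on 6 counts.

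Of the markers of choroid plexus epithelium, 28 of 30 listed genes were in the table and 27 had a count sum of at least 50. Of these 27, 15 were members and 25 had an r with Ttr above 0.5, with a median of 0.91. Otx2, a defining transcription factor of that epithelium, was listed at 0 in all 14 libraries. Whether reads of Otx2 could be counted with the annotation used was not tested, so the 0 is not read as absence. The 15 members of the list were high in the 3 libraries because the rule chose them so. The 12 others with a count sum of at least 50 summed to 429 and 104 CPM in the sham day 1 libraries, 119 to 152 CPM in sham day 14 and 72.1 to 118 CPM in TBI day 1. In the TBI day 14 libraries they summed to 117, 179, 342 and 115 CPM. The same 3 libraries thus had the highest sums for the genes that were not members, but not the highest level of each gene. Car12 was highest in sham day 14 replicate 2 (83.0 CPM) and Wfdc2 in TBI day 1 replicate 1 (5.06 CPM). The r of these genes with Ttr was also part of what the rule examined, so the sums are a description.

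Genes of the list that missed the threshold followed the 3 libraries to differing degrees. A call at day 1 does not by itself place a gene high in them. Of 12 tested, edgeR called Calml4 (-2.88, SE 0.526), Car12 (-1.25, SE 0.309), Cldn1 (-2.65, SE 0.456) and Msx1 (-1.97, SE 0.591) lower in TBI at day 1 on the log2 scale and none higher, where 7.93% of all tested genes were called lower. At day 14 it called none of the 12 in either direction. Sham day 1 replicate 2, in which Ttr was low, held 17.3 CPM of Calml4 and 10.2 CPM of Cldn1. The TBI day 1 libraries lay below, at 1.69 to 5.58 and 1.22 to 3.69 CPM, and so did TBI day 14 replicate 2, at 7.62 and 7.73 CPM. Of Krt8 and Wfdc2, sham day 1 replicate 2 held 0 and 0.758 CPM. The TBI day 1 libraries lay above, at 0.815 to 3.90 and 1.86 to 5.06 CPM. Aqp1, a water channel of the apical membrane, had an r of 0.88, with 60.1, 16.2 and 64.7 CPM in sham day 1 replicate 1 and TBI day 14 replicates 2 and 3, and also 12.1 CPM in TBI day 1 replicate 4. Slc13a4, a sulfate transporter, had an r of 0.84 and likewise reached 18.4 CPM in TBI day 1 replicate 4, above its 16.5 CPM in TBI day 14 replicate 2. Car12, a carbonic anhydrase, had an r of 0.31 and was highest in sham day 14, at 62.2 to 83.0 CPM.

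No other marker list had a member. The median r was 0.08 for 10 measured genes of ependyma, the ciliated lining of the ventricles, and 0.20 for 13 genes of meninges and fibroblasts. It was -0.20 for endothelium, 0.02 for neurons, -0.04 for thalamus and habenula neurons, 0.26 for microglia, 0.06 for astrocytes, 0.19 for oligodendrocytes and -0.11 for blood. The ependymal sum lay at 126 CPM in sham day 1 replicate 1. In TBI day 14 replicates 2 and 3 it lay at 54.4 and 87.9 CPM. All 3 sums were inside the range of 40.2 to 128 CPM of the other 11 libraries. Rarres2 made up 85.7 of the 128 CPM, in TBI day 1 replicate 4. Of the 10 ependymal genes, 2 had an r above 0.5, Tekt1 (0.60) and Foxj1 (0.57). In the 3 libraries in that order, Foxj1 had 41.7, 19.2 and 39.1 CPM, against at most 29.0 CPM elsewhere. Tekt1 had 9.95, 6.97 and 9.25 CPM, against at most 8.05 CPM elsewhere. The meningeal sum was 1649 CPM in sham day 1 replicate 1, above all others, but 715 and 839 CPM in the TBI day 14 libraries, inside the range of 210 to 1088 CPM. Ptgds made up 1270 of the 1649 CPM. Of the 13 genes, 2 had an r above 0.5, Fmod (0.78) and Ptgds (0.64). Fmod was highest in the 3 high libraries, at 80.8, 27.8 and 52.7 CPM in the same order, against at most 27.3 CPM elsewhere. The part of choroid plexus tissue in the levels of the members was not tested.

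**Figure D3:**
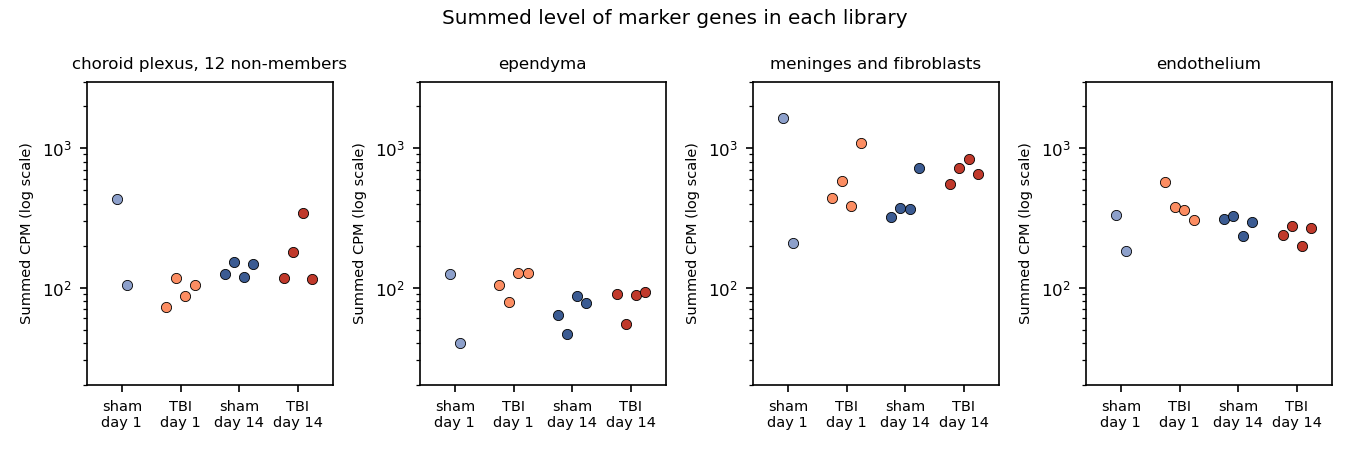
Summed CPM (vertical, log scale) of marker genes of choroid plexus epithelium that were not members, ependyma, meninges and fibroblasts, and endothelium in each of 14 libraries, grouped by treatment and day, with points in the order of the replicate numbers. The 12 non-members of the choroid plexus list sum to 429, 179 and 342 CPM in sham day 1 replicate 1 and TBI day 14 replicates 2 and 3 and to at most 152 CPM in the other 11, and the ependymal sums of all libraries lie between 40.2 and 128 CPM.

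The role lists of transport and of epithelial junction and keratin genes held 8 members, 6 and 2 in that order. Cldn2 encodes claudin-2, which forms cation and water pores in leaky tight junctions. Its level was 132 and 0.884 CPM in sham day 1, 0.407, 0.216, 0.0946 and 0.181 CPM in TBI day 1, 1.03, 0.816, 1.28 and 0.574 CPM in sham day 14, and 0.465, 16.5, 93.4 and 0.418 CPM in TBI day 14. Outside the 3 high libraries, each TBI library lay below each sham library. Slc4a5, a sodium bicarbonate cotransporter, stood at 138 and 0.295 CPM in sham day 1, 1.51, 1.04, 2.55 and 1.41 CPM in TBI day 1, 0.903, 0.816, 1.17 and 0.521 CPM in sham day 14, and 1.53, 15.1, 56.2 and 2.30 CPM in TBI day 14. Its TBI libraries outside the high ones lay above the sham libraries except for 1 overlap, TBI day 1 replicate 2 at 1.04 CPM against sham day 14 replicate 3 at 1.17 CPM.

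Slco1a5 encodes an organic anion transporter. It reached 34.7, 7.38 and 23.6 CPM in sham day 1 replicate 1 and TBI day 14 replicates 2 and 3, and at most 0.319 CPM in the other 11 libraries, where 2 TBI day 1 libraries had 0 counts. Slc5a5, the sodium iodide symporter, had a background of 2.34 to 5.55 CPM in the 11 libraries below 11.1 CPM in TBI day 14 replicate 2. Clic6, a chloride intracellular channel protein, reached 214, 18.2 and 73.7 CPM, Slc16a8, a lactate transporter, 6.62, 3.28 and 12.5 CPM, and Steap1, of a metalloreductase family, 8.49, 1.76 and 7.89 CPM, in the same order. Slc16a8 and Krt18 were among the 8 members that were highest in TBI day 14 replicate 3.

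Receptors were represented by Folr1 and Prlr. Folr1, the folate receptor that moves folate into the cerebrospinal fluid, stood at 61.5 and 0.0421 CPM in sham day 1, 0.349, 0.518, 1.84 and 0.499 CPM in TBI day 1, 1.35, 0.932, 2.55 and 2.24 CPM in sham day 14, and 3.58, 11.4, 56.2 and 3.50 CPM in TBI day 14. All 4 TBI day 14 libraries lay above all 4 sham day 14 libraries, the 2 without high Ttr included. Prlr, the prolactin receptor, reached 10.3, 1.46 and 5.61 CPM in the high libraries and at most 0.524 CPM elsewhere.

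Mfrp encodes a membrane protein related to the frizzled receptors. Its level was 328 and 0.0842 CPM in sham day 1, 0.116, 0.648, 0.757 and 0.635 CPM in TBI day 1, 1.10, 1.40, 2.13 and 1.72 CPM in sham day 14, and 3.19, 54.4, 208 and 2.35 CPM in TBI day 14. The TBI day 1 libraries lay below, and the TBI day 14 libraries above, all sham day 14 libraries.

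The secreted and shed products were Enpp2, Sostdc1, F5, Kl and Tmem27. Enpp2 encodes autotaxin, which makes lysophosphatidic acid, and it is also known from oligodendrocytes. It kept 92.9 to 213 CPM in the 11 libraries and reached 2222, 524 and 1101 CPM in the high ones. Sostdc1, a secreted antagonist of BMP and Wnt signaling, had the widest separation of the 35, with 185, 21.2 and 99.9 CPM against at most 0.499 CPM. Kl, the klotho protein that serves as a coreceptor for FGF23, reached 158, 15.7 and 64.8 CPM against at most 1.16 CPM. Tmem27, collectrin, was at 0 counts in 8 of the 14 libraries and reached 22.5, 2.64 and 10.7 CPM.

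F5, coagulation factor V, was the member with the lowest r, at 0.901. It had 5202 and 14 counts in sham day 1, 44, 126, 81 and 164 in TBI day 1, 14, 12, 26 and 9 in sham day 14, and 18, 464, 1414 and 19 in TBI day 14. As CPM these were 2.56, 5.44, 3.83 and 7.44 in TBI day 1 against 0.469 to 1.38 in sham day 14. Each TBI day 1 library therefore lay above each of the 7 sham and TBI day 14 libraries in which Ttr was low.

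Lmx1a, a LIM homeodomain factor of the roof plate from which the choroid plexus forms, was the only member among 8 listed transcription factors. It stood at 8.44 and 0.211 CPM in sham day 1, 0.233, 0.216, 0.0946 and 0.181 CPM in TBI day 1, 0.387, 0.175, 0.372 and 0.0521 CPM in sham day 14, and 0.465, 1.76, 8.70 and 0.157 CPM in TBI day 14. Hnf4a, a nuclear receptor known from liver and kidney, Six3, a homeodomain factor of the forebrain, and Zscan10, a zinc finger factor, were members without being on the list. They were scarce, at 35, 7 and 35 counts for Hnf4a, 31, 13 and 18 for Six3 and 58, 21 and 120 for Zscan10 in the 3 libraries. Gdf7, a BMP family ligand of the roof plate, had 52 counts in all, close to the limit of 50.

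The other members on no list included Mdk, the heparin-binding growth factor midkine, with 101, 54.5 and 118 CPM against 5.52 to 24.5 CPM. Cdh3, P-cadherin, had 27.8, 4.10 and 16.3 CPM against at most 1.81 CPM. Adipoq, the adipocyte hormone adiponectin, had 158, 19 and 127 counts against at most 4, and Pon1, a lipoprotein-bound paraoxonase, 92, 11 and 59 counts against at most 2. Scgb1c1, of the secretoglobin family, had 13.1, 5.10 and 11.5 CPM against at most 1.06 CPM, and Pla2g5, a secreted phospholipase, 27.1, 4.34 and 23.2 CPM against at most 1.89 CPM. Sytl3, Tmem72, C1qtnf3, Klc3, Lrrc18, Fam160a1, RGD1563692 and RGD1561795 completed the set. The 36 members lay on 17 chromosomes of the GRCr8 gene table, with 5 on chromosome 4 and 4 on chromosome 1. The nearest pair was Prlr and C1qtnf3 on chromosome 2, with 6 protein-coding genes between them.

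Relative to Ttr, the members were not in the same proportion in the 3 libraries. For each member the level above the sham day 14 median was divided by that of Ttr and is given per 1000 of Ttr. Of 24 members with at least 100 counts in both sham day 1 replicate 1 and TBI day 14 replicate 3, 21 had a lower value in the TBI library, and the ratio of TBI to sham had a median of 0.641. Exact 95% Poisson intervals of the member's own count did not overlap for 17 of the 24, lower in the TBI library for 15 and higher for 2. Over all 35 members, 27 had a ratio below 1 and 8 above, and the intervals lay apart for 15 lower and 6 higher. The 4 higher ones that the limit of 100 counts left out were Zscan10 (2.06), RGD1563692 (1.74), Krt18 (1.58) and Sytl3 (1.54), with 58 to 99 counts in the sham library. These are single libraries, so that the intervals cover counting error and not the spread between animals.

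Among the 24 members, the lowest ratios belonged to F5 (0.27), Clic6 (0.35), Slc4a5 (0.41), Kl (0.42) and Tmem72 (0.44). F5 had 36.9 per 1000 of Ttr in sham day 1 replicate 1 (interval 35.9 to 37.9), 18.9 in TBI day 14 replicate 2 and 9.89 in TBI day 14 replicate 3 (9.37 to 10.4). The highest among the 24 belonged to Slc16a8 (2.01), Mdk (1.23), Lmx1a (1.06), Steap1 (0.95) and Folr1 (0.93). Slc16a8 had 0.839 (0.689 to 1.01), 2.01 and 1.69 (1.48 to 1.92) in the same order, and Folr1 8.16 (7.68 to 8.65), 6.85 and 7.60 (7.15 to 8.08). Between TBI day 14 replicates 2 and 3, of the same group, the median ratio of replicate 2 to 3 was 1.22, and the intervals did not overlap for 10 of the 24. Proportions thus also differed within the group.

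**Figure D4:**
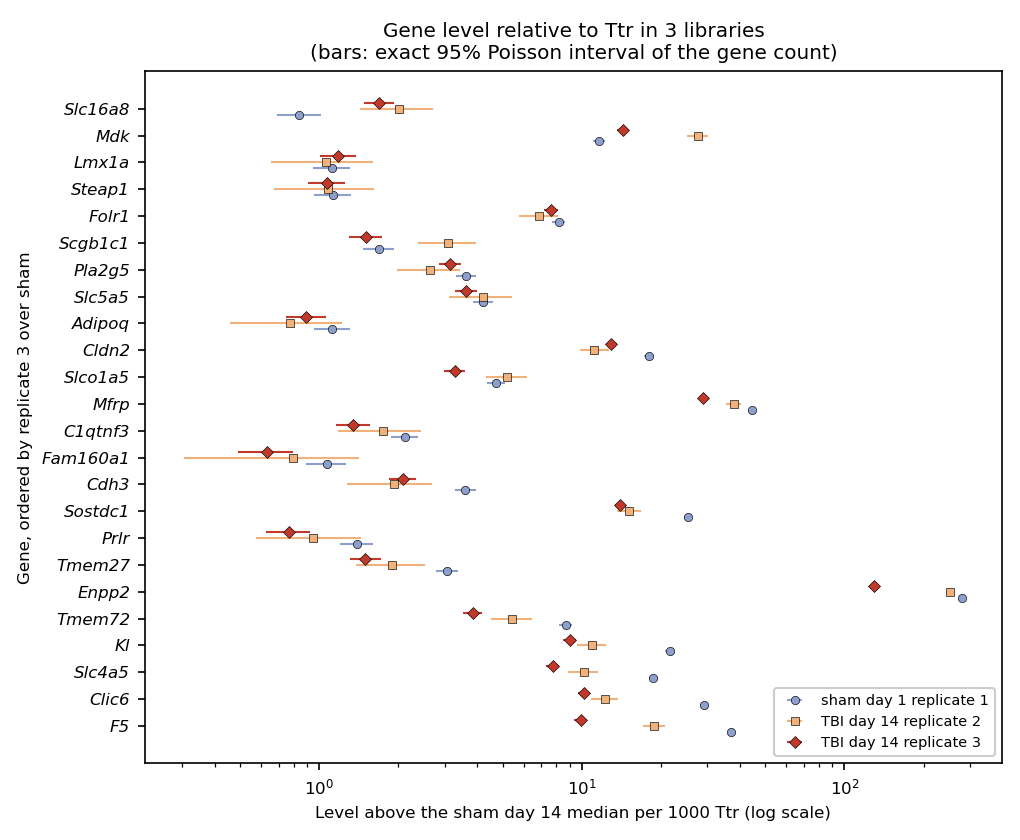
Level above the sham day 14 median per 1000 of Ttr (horizontal, log scale) of 24 members in sham day 1 replicate 1, TBI day 14 replicate 2 and TBI day 14 replicate 3, with bars for the exact 95% Poisson interval of the member's count, ordered from the lowest (bottom) to the highest ratio of TBI day 14 replicate 3 to sham day 1 replicate 1. F5, at the bottom, falls from 36.9 to 18.9 and 9.89, and Slc16a8, at the top, goes from 0.839 to 2.01 and 1.69.

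In the comparison of TBI with sham at day 1, edgeR's quasi-likelihood test with Benjamini-Hochberg adjustment called 27 of 36 members lower and 0 higher, where it called 7.93% of the 12875 tested genes lower. Nothing is read from that count, since the rule used these libraries. With limma-voom 1 was called lower, Enpp2 at -2.63 (SE 0.760), where it called 984 of all 12875 tested genes lower. With DESeq2 27 were called lower, where it called 1438 of all tested genes lower. The log2 fold change had a median of -4.70 over the members and -0.02 over all tested genes, and Ttr had -9.56 (SE 2.31). The sham group held 2 libraries, of which 1 was high. Without sham day 1 replicate 1, 0 of 36 members were called or had an unadjusted p under 0.05 by edgeR, the median was 0.56, 21 members had a fold change above 0 and 15 below, and Ttr had 0.63. Without sham day 1 replicate 2 the median was -5.67. In each of these fits the sham library that remains is assumed to vary like the libraries of the other groups.

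**Figure D5:**
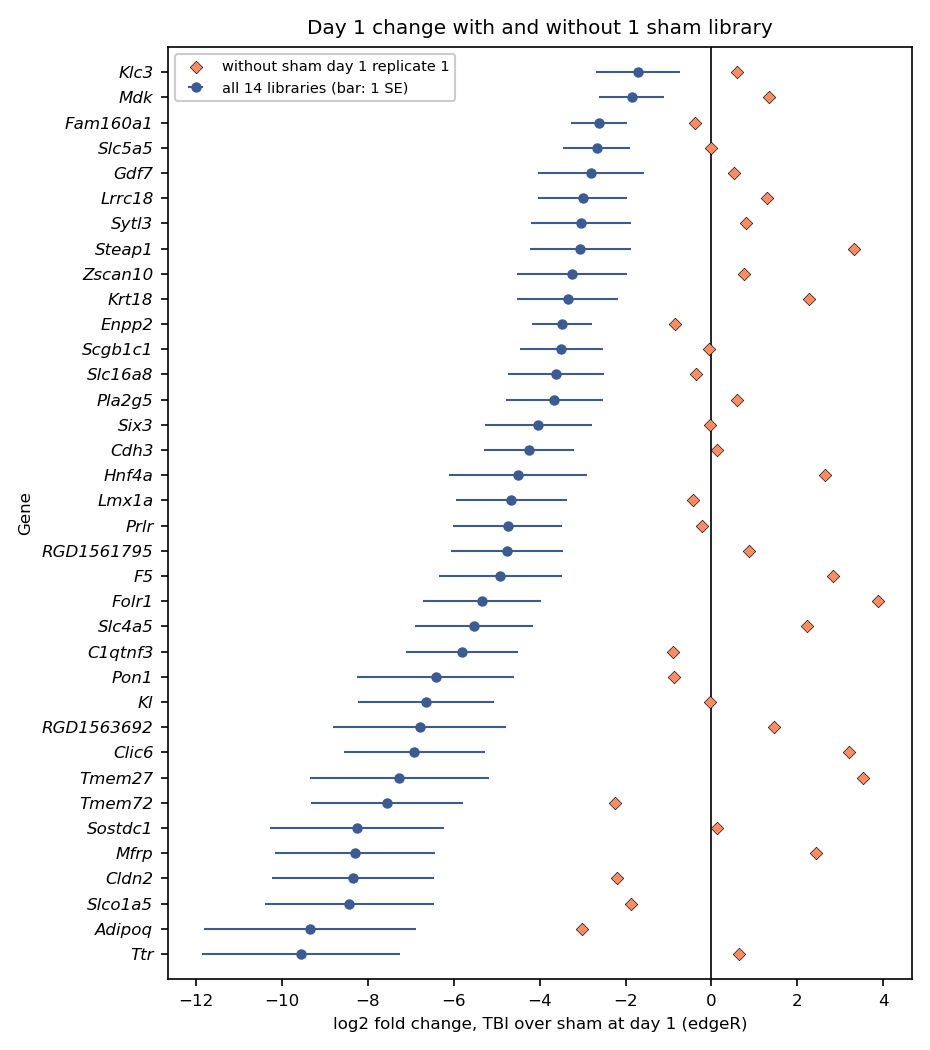
The log2 fold change of TBI over sham at day 1 (horizontal) for each of 36 members (vertical), from edgeR, with all 14 libraries (circles, bars of 1 SE) and without sham day 1 replicate 1 (diamonds, no error drawn). All 36 circles lie below 0, whereas 21 diamonds lie above 0 and 15 below.

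At day 14 the same test called 1 of 36 members higher, Ttr itself at 7.73 (SE 2.09), where 4.07% of all tested genes were called higher. The median log2 fold change of the members was 3.38 against -0.03 for all genes, and 28 had an unadjusted p under 0.05. The single call was at the edge of the threshold, since 9 of the 14 fits that left out 1 library called 0 members, among them those without each sham day 14 library and without TBI day 1 replicates 2, 3 and 4 (24 to 26 at an unadjusted p under 0.05). Without TBI day 14 replicate 3, 0 of 33 tested members were called by edgeR (11 at an unadjusted p under 0.05) and the median was 1.76, and Ttr had 5.59. Without TBI day 14 replicate 2 the count was 0 as well (29 at an unadjusted p under 0.05), but the median was 3.50 and Ttr had 7.89. With limma-voom 0 were called, with 2 at an unadjusted p under 0.05, where it called 439 of all 12875 tested genes higher. With DESeq2 14 were called, where it called 674 of all tested genes higher. Leaving out either sham day 1 library, which is in neither group compared but enters the estimate of spread, gave 18.

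For the difference between the days, 28 of 36 members were called higher at day 14 than at day 1, where 1.44% of tested genes were called in that direction. The difference was 17.3 for Ttr on the log2 scale (SE 3.11). With limma-voom 0 were called, with 13 at an unadjusted p under 0.05, where it called 100 of all 12875 tested genes higher. With DESeq2 34 were called, where it called 453 of all tested genes higher. Without sham day 1 replicate 1 no member was called by edgeR, with 5 at an unadjusted p under 0.05. Without all 3 high libraries, 22 members passed the filter on low counts and 0 were called for the difference (1 higher and 2 lower at an unadjusted p under 0.05). At day 1 the same fit called F5 (2.81, SE 0.745) and Mdk (1.33, SE 0.408) higher and Cldn2 (-2.21, SE 0.655) and Enpp2 (-0.86, SE 0.267) lower, against 1 remaining sham library. These are 2 of 22 members in each direction, where 10.8% of the 13047 tested genes were called higher and 8.48% lower.

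The 8 libraries of TBI day 1 and sham day 14, none of them high, allow a comparison of level that rests on no high library, although injury and time after surgery cannot be told apart in it. Of the 36 members 15 passed the filter on low counts. Of the 15, only F5 was called higher by edgeR, with a log2 fold change of 2.37 (SE 0.425), where 24.1% of the 12348 tested genes were called higher. Ttr (-0.98, SE 0.268), Mfrp (-1.63), Cldn2 (-2.16) and Enpp2 (-0.66) were called lower, 4 of 15, where 18.7% of tested genes were called lower. Of the 12 tested genes on the choroid plexus list that were not members, 4 (Abca4, Aqp1, Trpv4 and Wfdc2) were called higher and 3 (Calml4, Car12 and Cldn1) lower in the same fit. F5 was thus opposite in sign to Ttr in these libraries, as Kl (0.68, SE 0.372), Slc4a5 (0.82, SE 0.384) and Pla2g5 (0.78, SE 0.404) also were without being called.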

How the data were processed

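Reads were mapped by the authors with STAR 2.4.2a on the rat build rn5, and featureCounts 1.5.0 with the UCSC annotation gave the count of each gene. They deposited raw counts without normalization, and the strand setting of the counting is not given in the sources used here. The deposited counts of 17172 gene names (2 names occur more than 1 time) were used for 14 libraries, 1 per rat, with total counts from 15065540 to 23743703. Groups came from the labels. Levels were CPM of column totals, correlations used log2(CPM + 1), and genes needed a count sum of 50.

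The members, the lists and the comparisons were chosen with earlier results of these data known. Calls used edgeR 4.0.16 (TMM factors, filterByExpr by group, 1 quasi-likelihood fit over the 14 libraries, adjusted p under 0.05), with limma 3.58.1 (voom) and DESeq2 1.42.0 as alternatives, in R 4.3.3. The SE of a fold change is its size over the square root of the F statistic. The fits were also run on simulated data with the same spread for all genes and no library set apart. That run does not bear on calls that rest on a high library. Genes are named by rule: Ttr, the 10 with the highest r, the 5 on each side of the threshold, members on a role or cell type list, and the 5 highest and 5 lowest ratios per Ttr. The comparison of TBI day 1 with sham day 14 and the fits without the 3 high libraries were chosen after seeing the data, as were the other members named with their counts. Sequences came from RefSeq tables on GRCr8 by symbol. Python 3.11.15 with scipy 1.17.1 made the intervals. The H3K4me3 peak lists were not used here, because their coordinates are on rn5 and no annotation of that build was used.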

Additional observations from a re-analysis of the deposited data

Results flagged for a closer look

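For the TBI effect at day 14 minus that at day 1, edgeR's test called 28 of the 36 members, and Ttr had 17.29 on the log2 scale. It called 1.44% of all tested genes in that direction, and limma-voom called 0 members. Nothing is read from these values, since the rule used these libraries. Both the count and the value of Ttr rest on the 3 high libraries. Without sham day 1 replicate 1 Ttr had 7.10 and the members a median of 2.47. Without all 3 high libraries Ttr had -0.91 and the 22 tested members a median of -0.20.

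Within groups of 4 libraries, Dixon's criterion was applied to each member and to the median of the members. Chance alone sets 1 library apart in about 1 in 20 groups of normally distributed values. In 8 of 111 cases, each of a single member, a library was set apart from the other 3. On the scale log2(CPM + 1) these were Mfrp at 0.16 (2 counts) and Slc5a5 at 2.56 (84 counts) in TBI day 1 replicate 1, RGD1563692 at 0.061 (1 count) and Pon1 at 0.12 (2 counts) in TBI day 1 replicate 2, and Folr1 at 1.51 (39 counts) in TBI day 1 replicate 3. The others were Six3 at 0.24 (4 counts) in TBI day 1 replicate 4, Gdf7 at 0.23 (3 counts) in sham day 14 replicate 2 and Slc5a5 at 1.74 (44 counts) in sham day 14 replicate 3. The TBI day 14 libraries with high Ttr were not among them, since there were 2 in that group of 4. For RGD1563692, Pon1, Six3 and Gdf7 the other 3 libraries of the group had 0 counts. Any count is then set apart, and the rate of 1 in 20 does not apply.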

How the results depend on the processing

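The number of members was 3 with Spearman's rho of at least 0.9, 18 with r of at least 0.95, 62 with r of at least 0.8, 21 with a count sum of at least 500 and 3 without the 3 libraries in which Ttr exceeded 100 CPM, and it ran from 28 to 43 when 1 library was left out. Members called lower at day 1 numbered 1 with limma-voom and 6 with at least 10 counts in every library (7 tested). With only the groups compared 10 were called (22 tested), where 94 of all 12720 tested genes were called lower. With 1 library left out, sham day 1 aside, the members called numbered 18 (without TBI day 1 replicate 2) to 30 (without TBI day 14 replicate 3, 33 tested). At day 14 they numbered 0 with limma-voom, 14 with DESeq2, 10 with only the groups compared and 0 without the 3 libraries, and 0 to 18 with 1 library left out (18 without either sham day 1 library, 5 and 6 without TBI day 14 replicates 1 and 4). For the difference between days they numbered 0 with limma-voom, 6 with at least 10 counts, 0 without the 3 libraries and 0 (without sham day 1 replicate 1) to 34. With only the groups compared, 18 members were tested at day 14, where 903 of all 12231 tested genes were called higher. The median log2 fold change at day 1 was -2.40 with limma-voom and 0.36 without the 3 libraries. It ran from -5.67 to 0.56 with 1 library left out. At day 14 it was 1.69 with at least 10 counts, 0.18 without the 3 libraries and 1.76 to 3.75 with 1 library left out. Ttr turned to 0.62 at day 1 and -0.29 at day 14 without the 3 libraries, and ran from -10.6 to 0.63 at day 1 and 5.59 to 8.15 at day 14 with 1 library left out. Of the comparison of TBI day 1 with sham day 14, 0 members were called in either direction in a fit of all 14 libraries, and 1 to 2 higher and 3 to 6 lower with 1 library left out. In the last 100 bases before the start, CCAAT stood in 12.9% and GTTGCC in 0.0% of member sequences. The shares of all sequences in that shorter window were 17.1% and 4.51%, also below those within 250 bases. The median ratio per Ttr stayed within 0.641 to 0.654 under the other baselines. The causes were not tested.

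Replicate numbers are shared between groups, but they did not pair the libraries. Deviations from the group means correlated above 0.1 for 6 of 18 same-numbered pairs, and 4 of 14 libraries correlated best with their own number. With the replicate number as a block, 10 members were called lower at day 1, 0 higher at day 14 and 15 for the difference. Of all 12875 tested genes that fit called 1178 lower at day 1, 475 higher at day 14 and 199 higher for the difference.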
